A study of Homo sapiens with 7 samples.

Results

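Hemidesmosome and basement membrane genes were followed in RNA-seq libraries of esophageal squamous carcinoma cells that carried an shRNA against TP63, SOX2 or the long noncoding RNA CCAT1. The group holds 9 genes, chosen by name from 56236 genes with a transcript in the files: the laminin chains LAMA3, LAMB3 and LAMA5, the receptors ITGA6, ITGB4, COL17A1 and CD151, and the linkers DST and PLEC. All 9 had estimated counts in every one of the 7 libraries. The TE5 line gave 4 libraries, from cells carrying a scramble control shRNA, shTP63, shSOX2 or shCCAT1. The KYSE140 line gave 3, with the scramble control, shTP63 or shSOX2. Both are established lines grown as cultures, the shRNAs were delivered by lentivirus, and each condition is represented by 1 library, so no difference within a line has a replicate check.

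A hemidesmosome fastens a basal epithelial cell to the sheet of matrix beneath it. Laminin-332, a trimer with the chains encoded by LAMA3 and LAMB3, is secreted below the cell and is bound by the integrin made of the ITGA6 and ITGB4 chains. Inside the cell, plectin (PLEC) and the epithelial form of dystonin, BP230 (DST), tie the integrin and collagen XVII (COL17A1) to keratin filaments, and the tetraspanin CD151 sits beside the integrin in the membrane. LAMA5 encodes the chain of laminin-511, another basement membrane laminin. TP63 is the master regulator of basal squamous cells, and SOX2 is a transcription factor of the esophageal lineage.

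Estimated counts summed to between 68532611 and 98036494 per library. The TP63 count normalized for library size was 25.5% of scramble in TE5 shTP63 and 26.1% in KYSE140 shTP63. SOX2 was at 38.6% of scramble in TE5 shSOX2 and at 76.4% in KYSE140 shSOX2, so the SOX2 libraries of the lines differ in how far the target was lowered. TP63 was at 116% and 126% of scramble in the shSOX2 libraries of TE5 and KYSE140, and SOX2 at 65.6% in TE5 shTP63 and 103% in KYSE140 shTP63. CCAT1 itself was not analysed here, so its silencing in the shCCAT1 library was not checked. By the flow cell and lane in the labels, each scramble library came from another lane than the knockdowns of its line, and in TE5 from another flow cell, so shRNA and lane cannot be told apart in any comparison with scramble, whereas the knockdown libraries of a line share a lane. The squamous markers KRT5, KRT6A, KRT17, CDH1, EPCAM and TP63 were at 33.6 TPM or more in all libraries, but KRT14 was between 0.202 and 0.546 TPM in TE5 against 304 to 1690 TPM in KYSE140. Of the markers of other cell types, 4 of 6 for fibroblasts, 3 of 4 for leukocytes and 1 of 2 for endothelium stayed under 1 TPM in every library. The others were COL1A1, at 12.6 to 44.4 TPM, COL3A1, at most 1.73 TPM, CD68, at 2.57 to 116 TPM, and CDH5, which was at 8.36 TPM in TE5 shTP63 against 1.70 in TE5 scramble. Their part in the results was not tested.

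Transcript choices are shown first for ITGA6 and DST, because their proteins differ by which final exons are used. The integrin alpha-6 chain has alternative cytoplasmic tails. The tail of the form with an extra exon of 130 bases is coded at chr2:173366500-173366607 of GRCh37 (hg19, plus strand), and the tail of the form that skips it at chr2:173368819-173368980. Capitals mark the stop codon.
ITGA6 tail with the extra exon: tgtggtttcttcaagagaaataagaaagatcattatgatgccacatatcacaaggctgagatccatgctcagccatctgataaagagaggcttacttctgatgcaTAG
ITGA6 tail without it: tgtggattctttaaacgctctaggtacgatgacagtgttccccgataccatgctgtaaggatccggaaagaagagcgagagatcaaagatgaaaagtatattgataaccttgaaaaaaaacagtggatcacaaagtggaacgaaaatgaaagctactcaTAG

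For DST, the transcript that codes for the epithelial form DST-205 ends in 2 coding exons that the long transcript DST-201 lacks. The first 150 bases of the first of them lie at chr6:56485364-56485513 (GRCh37, minus strand), and the exon that DST-201 uses next lies at chr6:56479154-56479282.
DST epithelial exon, first bases: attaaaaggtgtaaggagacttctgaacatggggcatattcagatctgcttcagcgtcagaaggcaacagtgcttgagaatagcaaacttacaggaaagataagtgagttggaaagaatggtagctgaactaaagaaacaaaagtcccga
DST next exon of the long transcript: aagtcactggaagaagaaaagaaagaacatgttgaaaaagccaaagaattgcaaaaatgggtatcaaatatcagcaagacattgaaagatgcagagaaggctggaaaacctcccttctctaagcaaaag

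Per transcript length, the 9 genes were abundant in both lines. In TE5 scramble cells LAMA5 was at 334 TPM, ITGB4 at 273, COL17A1 at 263, CD151 at 207, LAMB3 at 192, ITGA6 at 104, DST at 82.2, LAMA3 at 65.9 and PLEC at 43.1. In KYSE140 scramble cells the order was COL17A1 (361 TPM), LAMB3 (303), ITGB4 (209), LAMA5 (113), DST (101), CD151 (78.7), ITGA6 (70.8), PLEC (48.5) and LAMA3 (24.0). These sums include transcripts that are not protein coding, which held 236 of the 334 TPM of LAMA5 in TE5 scramble and 77.3 of its 113 TPM in KYSE140 scramble. The main coding transcript of LAMA5 alone was at 97.3 and 34.3 TPM, so the place of LAMA5 in both orders rests on the noncoding ones. For ITGB4 they held 44.5 and 38.4 TPM. The scramble libraries differed most for LAMA5, LAMA3 and CD151, all higher in TE5, by 1.57, 1.46 and 1.39 in log2 TPM. In these bulk samples, fewer cells of a type and less RNA per cell cannot be told apart. With 1 library of each, neighbors in these orders have no replicate spread to be set against.

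**Figure D1:**
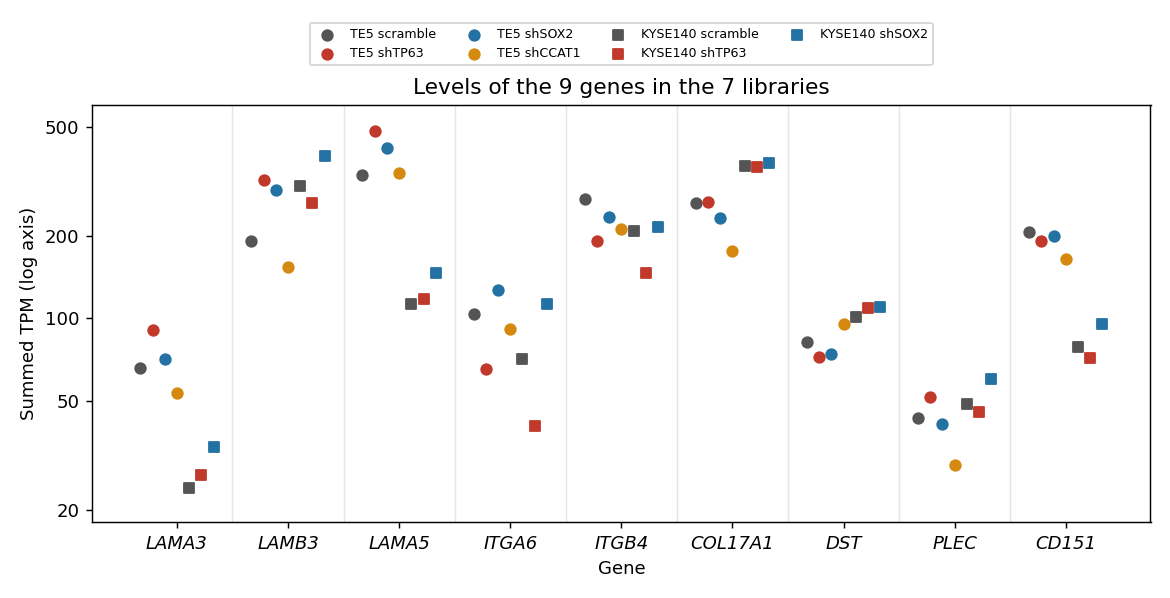
Summed TPM (log axis) of the 9 genes in each of the 7 libraries, with circles for TE5, squares for KYSE140 and colors for the shRNA. ITGA6 is lowest in the shTP63 library and highest in the shSOX2 library of each line.

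Beginning with the receptors, ITGA6 showed the largest difference between the shRNAs. Its normalized counts in TE5 were 29182 with scramble, 15835 with shTP63, 37029 with shSOX2 and 24068 with shCCAT1. In KYSE140 they were 21800 with scramble, 11425 with shTP63 and 40958 with shSOX2. In each line the shTP63 library was the lowest and the shSOX2 library the highest. Against scramble, the shTP63 libraries were at 54.3% for TE5 and 52.4% for KYSE140, log2 fold changes of -0.88 (95% interval of counting error -0.91 to -0.86) and -0.93 (-0.97 to -0.90). Upon SOX2 silencing it was at 127% in TE5 and 188% in KYSE140. Over both lines, edgeR's quasi-likelihood test with line as block gave an adjusted p of 0.174 for shTP63 against scramble and 0.461 for shSOX2 against scramble, which do not pass the threshold of 0.1.

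The comparison of shTP63 with shSOX2 uses libraries of 1 lane in each line. The log2 fold change of ITGA6 was -1.23 in TE5, where the shTP63 library was at 42.8% of the shSOX2 library, and -1.84 in KYSE140, where it was at 27.9%. Computed from TPM the values were -0.96 and -1.47, so in TE5 the 2-fold mark is passed in normalized counts and not in TPM. In the fit over both lines it fell by 1.51 ± 0.19 (SE) in log2 with shTP63 relative to shSOX2, with an edgeR adjusted p of 0.0471. It was the 1 of the 9 genes called in this contrast, in which 0.968% of 26037 features were called higher and 1.44% lower. Fitted on the 4 libraries of the contrast alone, the adjusted p was 0.201, and that fit called 0 features with 3201 at an unadjusted p under 0.05.

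Both tail forms of ITGA6 were lowest with shTP63 and highest with shSOX2 in each line. The form with the extra exon was at 70.2 TPM with scramble, 42.5 with shTP63, 85.4 with shSOX2 and 52.7 with shCCAT1 in TE5, and at 51.4, 28.0 and 90.5 TPM with scramble, shTP63 and shSOX2 in KYSE140. The form without it was at 21.7, 13.5, 30.5 and 27.8 TPM in the same order in TE5, and at 10.0, 5.04 and 13.9 TPM in KYSE140. The ratio of the first to the second was between 2.8 and 3.24 in the TE5 scramble, shTP63 and shSOX2 libraries and 1.9 with shCCAT1, and it was between 5.14 and 6.51 in KYSE140.

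ITGB4, the partner chain of ITGA6 and the one that carries the long tail to plectin, had normalized counts of 69526 with scramble, 38636 with shTP63, 52399 with shSOX2 and 43526 with shCCAT1 in TE5. In KYSE140 they were 59400, 37110 and 63379 with scramble, shTP63 and shSOX2. The shTP63 library was the lowest in both lines, at 55.6% and 62.5% of scramble. These are log2 fold changes of -0.85 in TE5 and -0.68 in KYSE140, and computed from TPM the value was -0.52 in each line. The edgeR estimate over both lines was -0.75 ± 0.16 (SE) with an adjusted p of 0.175, and for shTP63 against shSOX2 it was -0.58 ± 0.16 with an adjusted p of 0.165. In TPM, log2 of ITGA6 over ITGB4 was -1.39 in TE5 scramble and -1.57 in KYSE140 scramble. With shSOX2 it was -0.88 and -0.94, the highest ratio in each line, and with shTP63 it was -1.55 and -1.85, the lowest.

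COL17A1, a transmembrane collagen, had 68017 normalized counts with scramble, 58972 with shTP63, 57997 with shSOX2 and 40965 with shCCAT1 in TE5. In KYSE140 it had 105221, 99758 and 111736 with scramble, shTP63 and shSOX2. The shCCAT1 library stood lowest, at 60.2% of TE5 scramble. CD151 had 15393, 12442, 14543 and 11467 normalized counts in TE5 in that order, and 6359, 5514 and 8233 in KYSE140. Its log2 fold change upon TP63 silencing was -0.31 in TE5 and -0.21 in KYSE140. With shCCAT1 in TE5 it was -0.42, and with shSOX2 it was -0.08 in TE5 and 0.37 in KYSE140.

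Among the ligands, LAMB3 had 40445 normalized counts with scramble, 60851 with shTP63, 63155 with shSOX2 and 30095 with shCCAT1 in TE5. In KYSE140 it had 73518 with scramble, 63361 with shTP63 and 106797 with shSOX2. Upon SOX2 silencing it was at 156% of scramble in TE5 and 145% in KYSE140, an edgeR estimate of 0.57 ± 0.23 (SE) with an adjusted p of 0.567. Upon TP63 silencing it was at 150% in TE5 but at 86.2% in KYSE140. Within the TE5 lane, it was the 1 gene of the 9 past 2-fold against shCCAT1, by 1.02 in log2 with shTP63 and 1.07 with shSOX2 (1.05 and 0.92 computed from TPM). Of all genes, 13.9% were over 2-fold higher with shTP63 than with shCCAT1, and 7.71% with shSOX2, so 1 of 9 is near these shares.

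LAMA3 had 21388 normalized counts with scramble, 26115 with shTP63, 23322 with shSOX2 and 17120 with shCCAT1 in TE5, and 10104, 10188 and 15108 with scramble, shTP63 and shSOX2 in KYSE140. Its short form starts at an internal promoter and its long form upstream. The short form was at 43.1, 56.0, 45.4 and 27.5 TPM in TE5 and at 11.5, 10.6 and 20.2 TPM in KYSE140, in the same order, and the long form stayed between 6.75 and 10.2 TPM in all 7 libraries. The short to long ratio was 5.34 to 5.49 in the other TE5 libraries and 2.86 with shCCAT1. In KYSE140 it was 1.61, 1.57 and 2.51 with scramble, shTP63 and shSOX2. The long form sums 2 transcripts. In TE5 the minor one was at 3.11 TPM with shCCAT1 and at most 0.0665 TPM in the other libraries. The main one was lowest with shCCAT1, at 6.5 TPM against 8.0 to 10.2. The ratio of 2.86 thus rests in part on the minor transcript. These are kallisto's estimates for overlapping transcripts and have no replicates. LAMA5 had 72073, 80634, 77940 and 58911 normalized counts in TE5 and 27559, 24673 and 39962 in KYSE140. Its antisense neighbor LAMA5-AS1 had 7 to 35 estimated counts in TE5. Whether counting used strand is not given in the sources used here.

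Of the linkers, DST differed between libraries in which of its ends was used. The gene as a whole had 30107, 22922, 27672 and 32687 normalized counts in TE5 with scramble, shTP63, shSOX2 and shCCAT1, and 42900, 44311 and 51990 in KYSE140 with scramble, shTP63 and shSOX2. The form with the epithelial end, whose exon is printed above, was at 48.6, 27.0, 43.0 and 53.5 TPM in TE5 and at 42.3, 35.4 and 43.3 TPM in KYSE140. The transcripts that run past it were at 4.96, 9.34, 4.79 and 6.24 TPM in TE5 and at 12.8, 17.5 and 13.8 TPM in KYSE140. The epithelial form was lowest, and the longer transcripts highest, in the shTP63 library of each line. The share of DST counts with the epithelial end was 72.6% in TE5 scramble, 72.0% with shSOX2, 71.7% with shCCAT1 and 49.2% with shTP63. In KYSE140 it was 53.4% with scramble, 50.6% with shSOX2 and 42.9% with shTP63. DST-205 and DST-201 start within 500 bases of each other, and they differ in where they end. These shares are kallisto's estimates for overlapping transcripts, have no replicates and were grouped by end after the values had been seen.

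**Figure D2:**
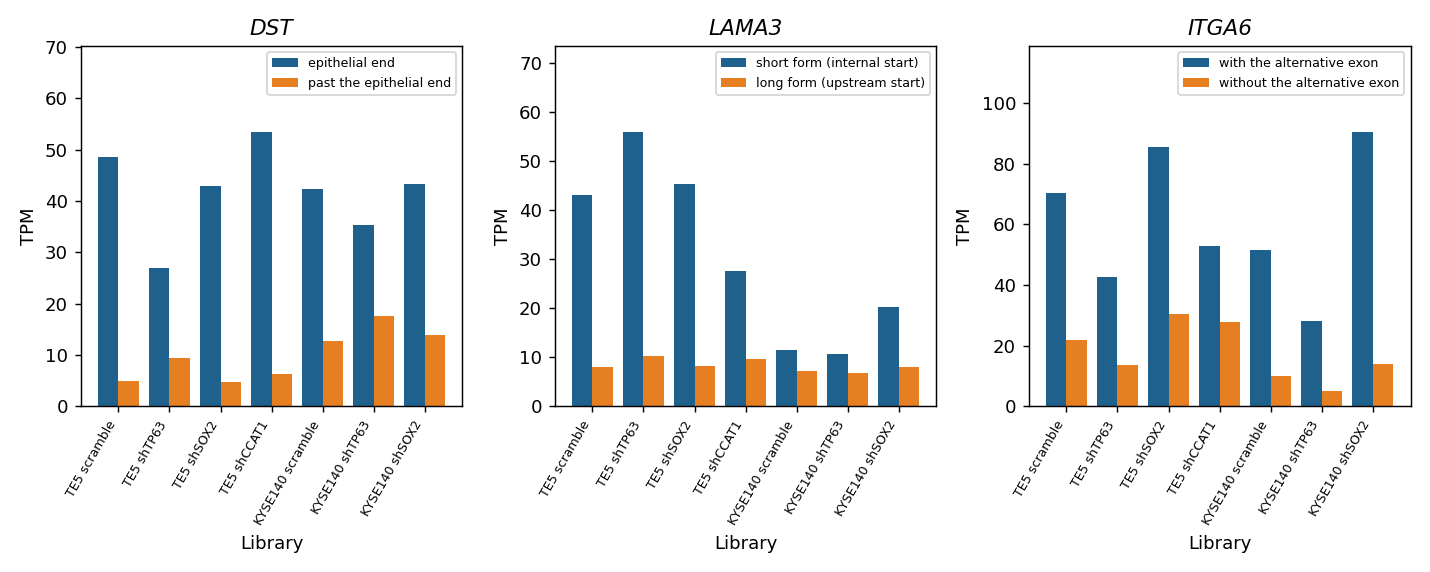
TPM of the transcript forms of DST, LAMA3 and ITGA6 in each library, as bars from 0 without error bars since there is 1 library per condition. In DST the epithelial form is at 27.0 TPM in TE5 shTP63 against 48.6 in scramble, while the longer transcripts are at 9.34 against 4.96.

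PLEC had 33715 normalized counts with scramble, 35339 with shTP63, 33188 with shSOX2 and 20142 with shCCAT1 in TE5, and 39993, 33470 and 57055 with scramble, shTP63 and shSOX2 in KYSE140. The TE5 shCCAT1 library was at 59.7% of scramble and the KYSE140 shSOX2 library at 143%. PLEC transcripts differ in their first exon. PLEC-205 held 18.8% to 23.5% of its counts in the TE5 libraries and at most 0.424% in KYSE140, while PLEC-208 held 13.2% to 19.8% in TE5 and 38.5% to 42.3% in KYSE140. PLEC-206 held 3.66% in TE5 scramble and 13.4% in TE5 shTP63. The PLEC shares are also kallisto's estimates for overlapping transcripts and have no replicates.

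**Figure D3:**
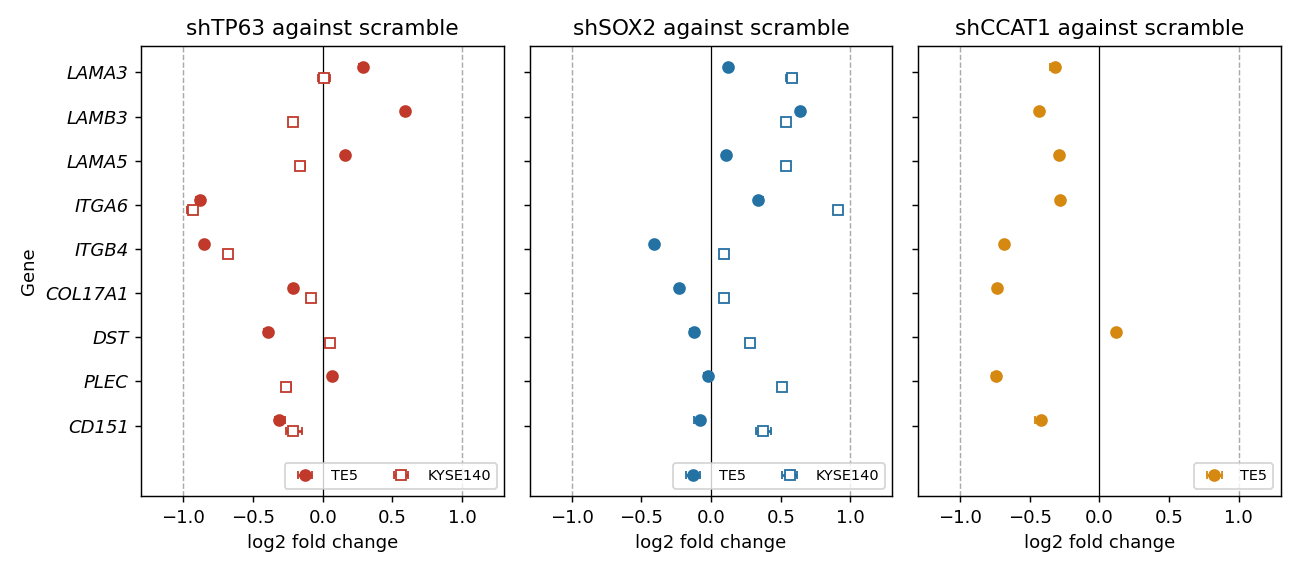
Log2 fold change of each gene against the scramble library of its line, with filled circles for TE5, open squares for KYSE140 and bars for the 95% interval of counting error, mostly smaller than the symbol. Dashed lines mark 2-fold, which none of the 45 values passes, and all 9 genes lie right of 0 for KYSE140 shSOX2.

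Taking the group against scramble, 0 of 9 genes passed 2-fold in any of the 5 comparisons. The share of all measured genes over 2-fold higher and lower was 14.4% and 5.63% for TE5 shTP63, 6.14% and 4.79% for TE5 shSOX2, 11.9% and 5.74% for TE5 shCCAT1, 8.6% and 4.16% for KYSE140 shTP63, and 6.75% and 6.21% for KYSE140 shSOX2. The median log2 fold change of the 9 genes was -0.21 in TE5 shTP63 and in KYSE140 shTP63, beside 0.05 and 0.04 over all genes. With shCCAT1 it was -0.42 beside 0.03, and 8 of 9 were below 0, DST being the exception. With shSOX2 it was -0.02 beside -0.01 in TE5 and 0.51 beside 0.05 in KYSE140. In edgeR's test over both lines, 0 of 9 were called for shTP63 or shSOX2 against scramble. In each, 2 of 9 had an unadjusted p under 0.05. The silenced genes were not called either, TP63 having an edgeR adjusted p of 0.104 for shTP63 and SOX2 0.395 for shSOX2. A gene that was not called is thus not shown to be unchanged. Of all features, 0% were called higher or lower for shTP63, with 3484 at an unadjusted p under 0.05, and 0% higher and 0.0538% lower for shSOX2, with 2255 at an unadjusted p under 0.05.

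Within a lane, 1 of 9 genes, ITGA6, passed 2-fold lower for shTP63 against shSOX2 in each line. All genes passed 2-fold higher and lower at 13.8% and 6.29% in TE5, and at 10.3% and 6.56% in KYSE140. The 9 genes had a median of -0.05 in TE5 and -0.70 in KYSE140, where all 9 were lower with shTP63. Against shCCAT1, shTP63 gave 13.9% of genes over 2-fold higher and 10.2% lower, and shSOX2 7.71% and 12.2%.

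**Figure D4:**
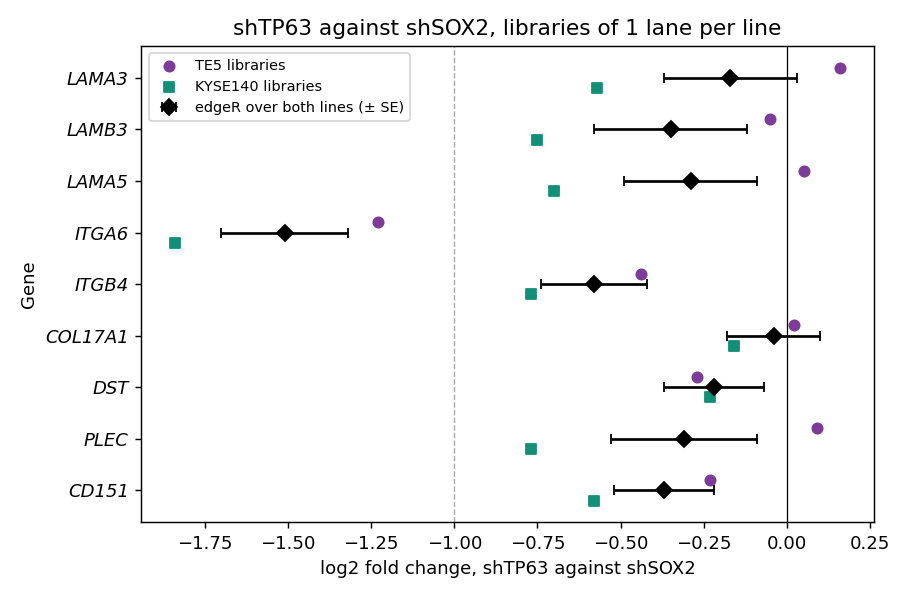
Log2 fold change of shTP63 against shSOX2 in TE5 (circles), in KYSE140 (squares) and in the edgeR fit over both lines (diamonds, ± SE). ITGA6 lies at -1.23, -1.84 and -1.51, left of the dashed line for 2-fold, and the other estimates over both lines lie between -0.58 and -0.04.

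A wider list of 34 genes of basement membrane matrix, its receptors and keratin linkage was set beside the group. Against scramble, over 2-fold higher and lower were 2 and 3 of 34 in TE5 shTP63, 0 and 2 of 33 in TE5 shSOX2, 0 and 4 of 34 in TE5 shCCAT1, 1 and 1 of 33 in KYSE140 shTP63, and 2 and 0 of 32 in KYSE140 shSOX2. The shares of all genes for these comparisons are given above. The median log2 fold change of the list was 0.03 in TE5 shTP63, 0.08 in TE5 shSOX2 and -0.06 in KYSE140 shTP63. It was -0.54 in TE5 shCCAT1 and 0.42 in KYSE140 shSOX2, shifts that the list shares with the group. Over all genes these medians lay between -0.01 and 0.05. In edgeR's test over both lines 0 of 33 were called against scramble for either shRNA. For shTP63 against shSOX2, 2 of 33 were called, both lower, beside 1.44% of all features called lower and 0.968% higher. Neither was called in the fit on the 4 libraries of the contrast alone, which called 0 features. They were KRT5, the basal keratin to which hemidesmosomes attach, at -1.69 ± 0.25 (SE, adjusted p 0.0598), and FERMT1, the integrin activator kindlin-1, at -1.25 ± 0.15 (adjusted p 0.041).

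KRT5 and FERMT1 passed 2-fold lower for shTP63 against shSOX2 in both lines, KRT5 at -2.03 in TE5 and -1.47 in KYSE140 and FERMT1 at -1.20 and -1.36. Against scramble, no gene of the list passed 2-fold in the same direction in both lines upon TP63 or SOX2 silencing. Upon TP63 silencing the lowest mean log2 fold changes were those of KRT5 (-1.82 in TE5, -0.71 in KYSE140), FERMT1 (-1.22, -0.94) and the laminin gamma-3 chain LAMC3 (-1.28, -0.60). The highest were those of LAMB2 (0.61, 0.35), ITGAV (0.45, 0.57) and LAMA2 (1.20, 0.52). Lower values of KRT5 and LAMC3 were not particular to shTP63. In TE5 shCCAT1 against the same scramble, KRT5 was at -1.46, LAMC3 at -1.37 and FERMT1 at -0.4. Upon SOX2 silencing the lowest were LAMC3 (-0.68, -0.33), COL4A2 (0.03, -0.34) and ITGA3 (-0.15, 0.23). Among the highest were the integrin chains ITGA2 (0.81, 0.49) and ITGAV (0.93, 0.64).

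Over the 5 log2 fold changes against scramble, the genes nearest to the median profile of the group among 12257 genes were MMP24OS (Euclidean distance 0.09), ADAT3 (0.15) and FAM89B (0.18).

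RefSeq promoter windows (GRCh38.p14) matched 6 of the 9 genes, with 11 windows, and ITGB4, PLEC and CD151 had no entry. Each window was searched on both strands for the p53 family decamer, for ACAAAG (the SOX core) and for TGANTCA (AP-1), which 6.63%, 16.1% and 7.71% of 35116 windows of that length hold. COL17A1 was the 1 gene of the 6 with that decamer, and the LAMA3 window held 2 AP-1 matches. A LAMB3 window and a DST window held 1 AP-1 match each. The COL17A1 window held 2 SOX core matches, and the other DST windows held 1 each. Neither window of ITGA6 held any of the 3. The 250 bases before the start are shown for COL17A1 and LAMA3 as the windows with most matches, with the matches in capitals (the SOX core read as CTTTGT on this strand), from the windows at chr10:104085831-104086130 (minus strand) and chr18:23872770-23873069 (plus strand).
COL17A1: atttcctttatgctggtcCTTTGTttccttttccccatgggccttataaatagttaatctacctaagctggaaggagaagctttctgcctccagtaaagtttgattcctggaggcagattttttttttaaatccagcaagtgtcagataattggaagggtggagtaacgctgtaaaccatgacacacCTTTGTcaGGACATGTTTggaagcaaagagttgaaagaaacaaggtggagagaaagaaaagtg
LAMA3: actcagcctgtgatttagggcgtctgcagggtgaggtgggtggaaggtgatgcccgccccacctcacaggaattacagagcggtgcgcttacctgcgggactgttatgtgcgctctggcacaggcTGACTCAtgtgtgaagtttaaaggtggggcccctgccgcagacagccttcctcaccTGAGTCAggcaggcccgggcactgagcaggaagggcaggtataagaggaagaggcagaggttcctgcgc
A match is a run of letters and not a measured binding site.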

How the data were processed

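RNA-seq of 7 libraries (TE5 and KYSE140, 1 per condition) was analysed. The authors pseudoaligned paired-end reads to Ensembl transcripts of hg19 with kallisto. For each transcript they deposited its estimated count, TPM and effective length. Transcripts were assigned to genes with GENCODE 44 mapped to hg19 (182863 of 196354), through flanking transcripts of the same gene (7011) or, for 311, so that gene sums equalled sums in the study's supplementary tables. The main COL17A1 transcript was assigned in this last way. In all, 97.61% of counts were assigned, and 6169 transcripts were not.

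Counts were TMM normalized (edgeR 4.0.16, R 4.3.3). Pairs were compared as log2((first + 1)/(second + 1)) over genes with at least 10 counts in 1 library, with 2-fold counted and no p-value. Intervals are exact binomial at 95% and cover counting error only. Over both lines, estimated counts rounded to whole numbers were tested with edgeR's quasi-likelihood test (6 libraries, line as block, 2 residual degrees of freedom, Benjamini-Hochberg adjusted p under 0.1), which treats the lines as replicates. The SE printed with an edgeR estimate is the absolute log2 fold change divided by the square root of the quasi-likelihood F statistic. The edgeR step was also run on simulated counts. These had a smaller dispersion than the real data (common dispersion 0.0602) and no difference between lines. That run therefore does not show how many real changes the test would find here. Alternatives included DESeq2 1.42.0, other scalings, filters and transcript sets.

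The genes and lists were chosen with earlier results of these data known. The text names the 9 genes, the silenced genes, the list genes past 2-fold in the same direction in both lines or otherwise with the 3 highest and 3 lowest mean changes (at least 100 counts in the higher library of each pair), and the 3 genes of nearest profile. One gene that this rule selects is not reported here. KRT5 and FERMT1 were also named for their calls, and the forms of DST, ITGA6 and LAMA3, PLEC transcripts and comparisons with shCCAT1 within the TE5 lane were chosen after their values were seen.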

Additional observations from a re-analysis of the deposited data

Results flagged for a closer look

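For 8 comparisons, the library of TE5 and that of KYSE140 lay on opposite sides of their scramble, each outside its counting error. The difference between the lines was not tested, since each has 1 library per condition. Upon TP63 silencing these were LAMB3 (log2 fold change 0.59 in TE5 and -0.21 in KYSE140), LAMA5 (0.16 and -0.16), DST (-0.39 and 0.05) and PLEC (0.07 and -0.26). Upon SOX2 silencing they were ITGB4 (-0.41 and 0.09), COL17A1 (-0.23 and 0.09), DST (-0.12 and 0.28) and CD151 (-0.08 and 0.37). PLEC upon SOX2 silencing (-0.02 and 0.51) was not counted, as its TE5 interval of -0.05 to -0.0 reaches 0 when rounded. LAMA5 upon TP63 silencing was above 0 in both lines in TPM (0.53 and 0.06). COL17A1 in KYSE140 shSOX2 was at 0.0 with total counts. Upon TP63 silencing, PLEC at 0.07 in TE5 and DST at 0.05 in KYSE140 lay near the all-gene medians of 0.05 and 0.04. With DESeq2 size factors that DST value was 0.01. The share of all genes on opposite sides in the lines is not given here. In the SOX2 libraries the target was at 38.6% of scramble in TE5 and 76.4% in KYSE140, and the part of this in the differences was not tested.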

How the results depend on the processing

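Of 302 values of the 9 genes recomputed under another scaling, pseudocount, unit or transcript set, 7 changed sign. These were COL17A1 in TE5 shTP63 in TPM (0.02), LAMA5 in TPM in TE5 shCCAT1 (0.02) and KYSE140 shTP63 (0.06), LAMA3 in KYSE140 shTP63 with DESeq2 size factors (-0.03) and with protein-coding transcripts only (-0.12), COL17A1 in KYSE140 shSOX2 with total counts (0.00), and LAMB3 for shTP63 against shSOX2 in TE5 in TPM (0.13). Scaling by total counts moved the median of all genes by up to 0.16. At 1.5-fold, the genes passed were 3 in TE5 shTP63, 1 in TE5 shSOX2, 3 in TE5 shCCAT1, 2 in KYSE140 shTP63 and 1 in KYSE140 shSOX2, in place of 0.

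In the test over both lines, DESeq2 called 2 of 9 genes for shTP63 against scramble (ITGA6, adjusted p 0.00127, and ITGB4, 0.00135), 1 for shSOX2 (ITGA6, 0.0967) and 2 for shTP63 against shSOX2. Testing genes with at least 1 count called 2 for shTP63 against scramble. Fitting the 4 libraries of the contrast alone called 0 for shTP63 against shSOX2. The adjusted p of ITGA6 in that contrast ranged from 4.71e-10 to 0.201 over 6 alternatives. PLEC for shTP63 against scramble went from -0.06 to 0.00 with effective length offsets. The cause was not tested. DESeq2 called 2020 features for shTP63 and 748 for shSOX2 against scramble and 2773 between them, edgeR 0, 14 and 626.

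With at least 50 counts, list genes over 2-fold numbered 1 higher in TE5 shTP63, 0 lower in TE5 shSOX2 and 0 higher in KYSE140 shTP63. PLEC with 1 flanking transcript added, chosen after seeing the data, kept its direction in the 5 comparisons with scramble. The libraries share no replicate numbers, and the test over both lines has the line as block. Leaving out a line leaves no residual degrees of freedom.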
